A study of Mus musculus with 6 samples.

Results

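The mitosis and spindle genes described here are 41 genes that act as a cell enters, carries out and leaves division: cyclins with Cdk1, mitotic kinases, the chromosomal passenger complex, the spindle checkpoint, centromere and kinetochore proteins, spindle motors and cytokinesis proteins. They were chosen by name, with earlier results of these data known. Each was found through the gene symbol of its probes on the array. All 41 had a probe, 37 under their own symbol (Cdk1 as Cdc2a) and 4 under an older symbol (Aurka as Stk6, Ndc80 as Kntc2, Spc24 as 2410030K01Rik and Cks1b as Cks1 and 2410005G18Rik). Of the 41, 29 were detected on both arrays of at least 1 tissue, and these were tested among 13455 genes in all.

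Gene expression was measured on Illumina mouse BeadChips in 6 samples of NKp46+ cells, sorted as CD45+ CD3- NKp46+ NK11+ as the labels spell it. There were 2 samples each from spleen, from intestine (gut lamina propria) and from skin. All 3 groups came from male RAG-2-KO mice on C57BL/6, aged 12 weeks and given no treatment that the labels name. RAG-2 is needed to rearrange antigen receptor genes, so mice without it form no mature T or B cells, and no group here comes from a mouse with an intact Rag2. The labels do not say whether the 2 samples of a tissue came from separate animals or pools. A p-value here weighs a tissue difference only against the spread of such samples, which may be technical. The array names put replicate 1 of every tissue on one slide and replicate 2 on another.

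In a dividing cell, cyclin B bound to Cdk1 starts mitosis, Plk1 and the Aurora kinases build the spindle, and the spindle checkpoint holds the anaphase-promoting complex back until every kinetochore is attached. Its coactivator Cdc20 then sets off the destruction of cyclin B and the separation of the chromatids. The transcripts of most of these genes accumulate in late S phase and G2 and are scarce in resting cells, so they are widely read as a proliferation signature. NK cells are lymphocytes that divide while they develop and when cytokines stimulate them, and most circulating mature NK cells rest.

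Most of these genes had their lowest signals in the intestine samples and their highest in the skin samples, with spleen between. In intestine, 21 of the 29 tested genes were lower than in spleen, 2 were higher and 6 did not pass the test (limma, Benjamini-Hochberg adjusted p under 0.05), where 28.4% of all genes tested were lower and 21.0% higher. Of the 29, 7 were detected on no intestine array and entered the test through spleen or skin, so they had to be dim in intestine. All of these were among the genes called lower. Without spleen replicate 2 some of the lower calls were lost, as given below. The median log2 difference of the tested genes for intestine against spleen was -0.61 in that fit. In skin, 23 of the 29 were higher than in spleen, 0 were lower and 6 did not pass, where 13.1% of all genes were higher and 11.5% lower. Between skin and intestine, 24 were higher in skin, 1 (Cenpa) was lower and 4 did not pass, where 22.9% of all genes were higher and 16.4% lower. The median log2 difference of the tested genes was -0.73 for intestine against spleen, 1.13 for skin against spleen and 1.64 for skin against intestine, and over all genes it was -0.04, 0.00 and 0.08. These medians depend on the offset added before the log: with an offset of 4 they were -1.10, 1.44 and 2.46, and with an offset of 64 they were -0.26, 0.65 and 0.92. Called genes were also counted by a 2-fold threshold, with a lower bound in place of the fold where the lower tissue did not detect the gene. By this rule 4 genes were lower and 1 higher in intestine than in spleen (6.67% and 6.68% of all genes), 18 were higher and 0 lower in skin than in spleen (1.43% and 1.03%), and 22 were higher and 0 lower in skin than in intestine (4.95% and 5.84%). These 3 comparisons share their samples pairwise, so they are not independent of each other.

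Counted by array on the normalized log2 values, both intestine arrays were below both spleen arrays for 22 of the 29 genes and above them for 3 (41.8% and 36.0% of all genes). Both skin arrays were above both spleen arrays for 28 genes and below them for 1 (36.8% and 34.9%), and above both intestine arrays for 25 and below them for 1 (38.6% and 27.3%). On the deposited signals, which are the values printed for each gene below and on which overlap is described there, intestine lay below spleen for 24 genes and above it for 2, skin above spleen for 26 and below it for 1, and skin above intestine for 26 and below it for 1. The matching shares of all genes were not counted on this scale, so these counts only describe the printed signals.

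Some genes departed from this order, and others did not pass in each comparison with spleen. Cenpa, the histone H3 variant that marks centromeres, had its highest signal in intestine. Bub1, a checkpoint kinase, was higher in both intestine and skin than in spleen by the brighter of its 2 probes. Bub3 and Cenpf passed the test in no comparison, and Racgap1 was detected in spleen alone. Incenp, Cdc20, Tpx2 and Kif23 did not pass in intestine against spleen. Cdca8, Mad2l1 and Ndc80 did not pass in skin against spleen. With median scaling of the arrays in place of quantile normalization the median of all genes moved to -0.28 for intestine against spleen and to -0.19 for skin against spleen, and 44.0% and 28.2% of all genes were then lower. The mitosis genes' medians were then -0.93 and 0.93, with 24 lower in intestine and 21 higher in skin, where 9.97% of all genes were higher.

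**Figure D1:**
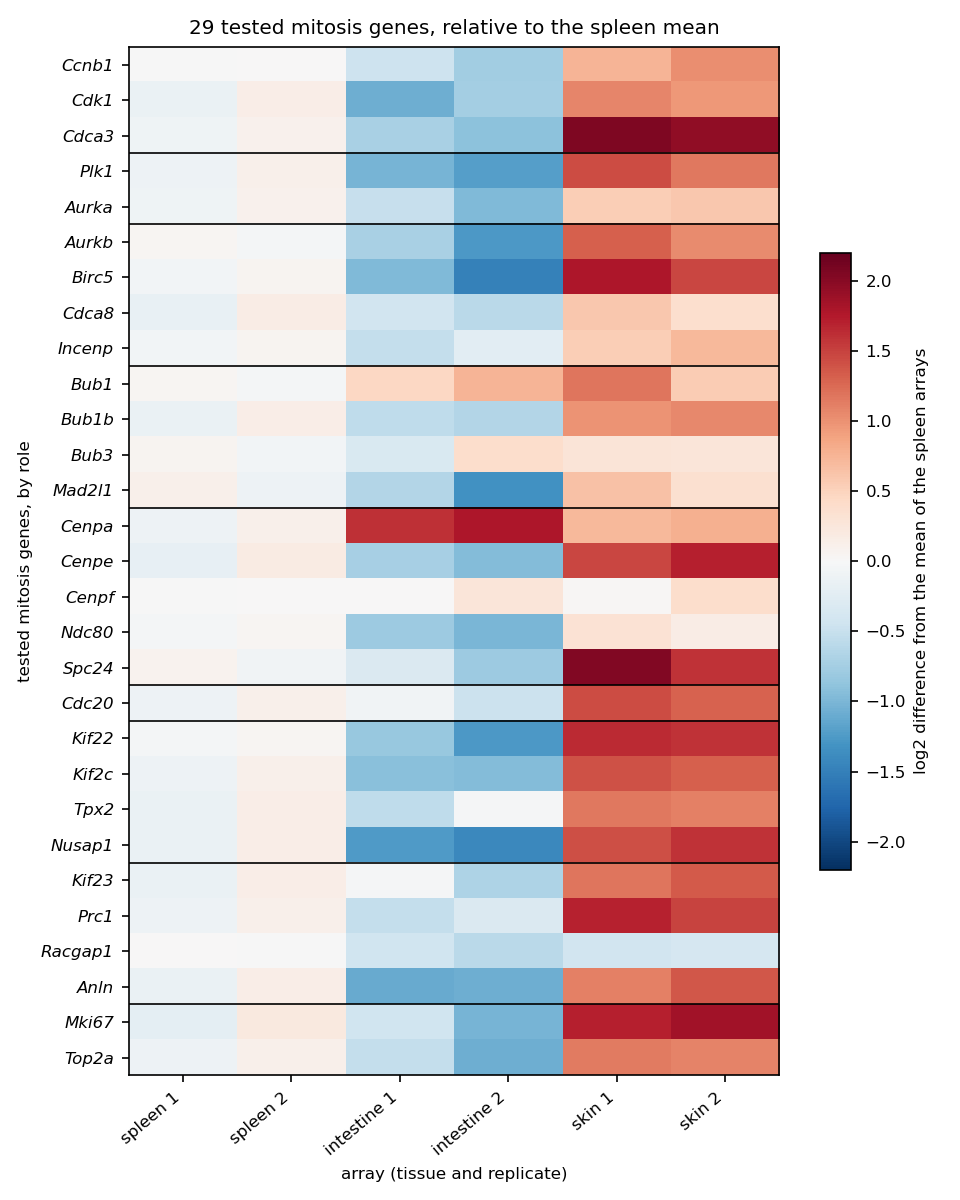
Log2 difference of each tested mitosis gene on each of the 6 arrays from the mean of the spleen arrays, with genes in rows ordered by role and arrays in columns, on a scale from blue (lower) to red (higher). The skin columns are red for most genes and the intestine columns blue, with Cenpa red on both intestine arrays.

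How well dim genes were measured differed between tissues. The deposited signals had been background-subtracted, with 30.7% to 32.7% of an array's probes below 0, and each array had been scaled to a mean of 83.1. Unscaled array means were 137 and 131 for the pair from spleen, 82.7 and 50.9 for intestine, 43.7 and 53.4 for skin. The number of the 46643 probes that were detected (detection p under 0.01) was 18266 and 18530 for spleen, 16549 and 15279 for intestine and 15196 and 16477 for skin. All 29 tested mitosis genes were detected on both spleen arrays, 27 also on both skin arrays, and 15 on both intestine arrays. A gene that entered the test through spleen or skin alone had to be dim in intestine, so the genes detected on all 6 arrays were also fitted by themselves, 15 of them mitosis genes among 9406. There, 10 were lower and 2 higher in intestine than in spleen (29.9% and 24.7% of the 9406), 14 were higher and 0 lower in skin than in spleen (17.1% and 11.5%), and 12 were higher and 1 lower in skin than in intestine (29.7% and 19.5%). Differences and folds, also those of the 2-fold counts, are on the scale of log2(signal + 16), on which changes of dim genes look smaller than they are. A fold given below is therefore not the ratio of the printed signals. Errors are standard errors (SE) of the fit with n = 2 arrays per tissue. In bulk RNA a larger share of dividing cells and more transcript in each cell cannot be told apart.

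The sorted phenotype was checked on its defining genes. All 8 sort and NK markers (Ncr1, Klrb1c, Ptprc, Nkg7, Klrd1, Il2rb, Tbx21 and Eomes) were detected on all 6 arrays. Their summed signal was 20758 to 21473 in spleen, 12579 to 14602 in intestine and 20107 to 21598 in skin. Of the CD3 chains, Cd3e was detected on no array, while Cd3d (108 to 203) and Cd3g (54.6 to 597) were detected on all 6. The summed signals of markers of other cells are given next for spleen, intestine and skin in that order. Erythroid markers summed to 12391 to 18274, 2607 to 3368 and 1172 to 1399, with 8, 5 and 5 of 15 detected on both arrays. Hba-a1 and Hbb-b1 were highest in spleen, whereas Tfrc (60.4 and 59.9 in spleen, 351 and 213 in intestine) and Car2 (607 and 569, 1899 and 1671), which makes up most of the intestine sum, were highest in intestine, and Klf1, Ermap, Epb42 and Rhag were detected on no array. Macrophage and dendritic cell markers summed to 883 to 922, 290 to 307 and 449 to 469 (12, 3 and 5 of 18 detected on both arrays), with Csf1r, Fcgr1, Cd14, Flt3 and Clec9a detected on no array. Vcam1 (74.1 and 81.0 in spleen), Lyz2 (26.5 and 54.4) and C1qb (19.1 and 21.1) were detected on the spleen arrays alone. The same held for C1qa, C1qc, Mrc1 and Adgre1. T cell markers summed to 870 to 945, 946 to 1262 and 771 to 807, with Cd4, Cd5 and Cd6 also detected on no array. Cd8b1 (269 and 257 in spleen, 134 and 148 in intestine, 361 and 373 in skin), Lat and Bcl11b were detected on all 6. Trat1 was highest in intestine (74.8 and 80.1), and Cd8a was 6.05 and 23.3 there. Fibroblast and endothelium markers summed to 249 to 256, 633 to 775 and 253 to 269, of which Pecam1, a gene that leukocytes express too, was 550 and 728 in intestine, and Col1a1, Col1a2, Col3a1, Lum, Cdh5 and Emcn were detected on no array. Dcn, a fibroblast gene, was 34.2 and 17.1 in skin, 45.7 and -2.53 in intestine and -0.443 and -3.49 in spleen. Gut epithelium markers summed to 21.2 to 28.9, 104 to 150 and 55.3 to 73.7, of which Cdh1 was 61.1 and 84.5 in intestine, and Epcam, Fabp1, Fabp2, Krt8, Krt19, Lgr5 and Cdx1 were detected on no array. Keratinocyte markers summed to 49.3 to 50.9, 71.0 to 71.6 and 60.3 to 85.4, mast cell and basophil markers to 5.27 to 6.61, 34.7 to 36.7 and 21.7 to 25.5, and B cell markers to 27.5 to 29.1, 30.4 to 49.2 and 22.4 to 25.6. The part of these other cells in the mitosis differences was not tested.

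The mitosis genes share sequence features in their promoters that the choice by name did not use. Many late cell cycle genes carry a cell cycle homology region, written TTTGAA, and CCAAT boxes, which NF-Y binds, just before the transcription start. In RefSeq windows of 300 bases (250 before and 50 after the start, assembly GRCm38.p6), searched on both strands, TTTGAA or its reverse complement TTCAAA lay in 27 of 35 mitosis genes with a window (77.1%) and in 20.2% of 27025 genes in all. CCAAT or its reverse complement ATTGG lay in 29 of 35 (82.9%) and in 41.1% of all genes. Both motifs lay in 24 of 35 (68.6%) and in 7.97% of all genes, and 1 gene had matches of the motifs that overlapped. The median GC content was 58.3% in the mitosis genes' windows and 52.7% in all. A match is a description of the letters and not a measured binding site. Spc24, Tpx2, Ccna2, Aurkb, Kif20a and Incenp are not in the table.

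The 200 bases just before the start are printed for 6 genes whose expression differed between the tissues, 5′ to 3′ on the gene's own strand, with TTTGAA or TTCAAA and CCAAT or ATTGG in capitals. Cdk1, Cdc20, Mki67 and Top2a show both motifs and were higher in skin than in spleen. Cenpa, the gene that was highest in intestine, has CCAAT boxes in this stretch and its TTTGAA at position 17 after the start. Nusap1, lower in intestine and higher in skin than in spleen, has neither motif in its window.
Cdk1 (chr10:69352913-69353112, reverse strand): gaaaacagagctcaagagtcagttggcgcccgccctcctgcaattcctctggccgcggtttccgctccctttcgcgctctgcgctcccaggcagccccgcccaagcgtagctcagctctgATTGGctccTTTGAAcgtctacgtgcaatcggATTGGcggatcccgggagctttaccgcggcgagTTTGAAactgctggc
Cdc20 (chr4:118437344-118437543, reverse strand): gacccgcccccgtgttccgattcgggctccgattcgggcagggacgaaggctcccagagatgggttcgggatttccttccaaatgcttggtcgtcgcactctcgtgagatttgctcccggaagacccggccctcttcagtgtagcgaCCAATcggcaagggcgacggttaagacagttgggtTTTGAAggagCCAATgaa
Mki67 (chr7:135716380-135716579, reverse strand): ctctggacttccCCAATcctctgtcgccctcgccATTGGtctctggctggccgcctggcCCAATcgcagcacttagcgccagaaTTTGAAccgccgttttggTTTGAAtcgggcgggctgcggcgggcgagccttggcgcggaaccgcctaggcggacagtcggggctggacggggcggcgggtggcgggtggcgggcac
Top2a (chr11:99024190-99024389, reverse strand): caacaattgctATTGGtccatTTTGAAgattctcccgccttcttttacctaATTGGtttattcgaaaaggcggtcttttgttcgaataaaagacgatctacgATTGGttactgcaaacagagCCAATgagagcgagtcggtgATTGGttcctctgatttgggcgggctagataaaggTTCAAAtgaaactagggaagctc
Cenpa (chr5:30666686-30666885, forward strand): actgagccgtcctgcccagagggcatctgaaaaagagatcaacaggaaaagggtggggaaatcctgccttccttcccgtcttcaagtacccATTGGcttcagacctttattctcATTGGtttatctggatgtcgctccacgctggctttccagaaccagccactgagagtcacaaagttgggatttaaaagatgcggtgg
Nusap1 (chr2:119618098-119618297, forward strand): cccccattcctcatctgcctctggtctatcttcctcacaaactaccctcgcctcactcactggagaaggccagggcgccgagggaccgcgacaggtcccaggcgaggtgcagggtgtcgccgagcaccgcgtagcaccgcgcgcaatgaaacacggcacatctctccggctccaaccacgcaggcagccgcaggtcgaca
Birc5 and Mad2l1 likewise held neither motif in the window.

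The cyclins and Cdk1 were lower in intestine and higher in skin wherever they could be tested (3 of 3 tested genes, of 8). Signals are given below for replicate 1 and then replicate 2 of each tissue. Cdk1, the kinase that drives entry into mitosis, had signals of 38.3, 50.2 (spleen), 7.02, 13.9 (intestine) and 89.3, 83.1 (skin). Each skin array was above each spleen array, and both intestine arrays were below them. Its log2 difference was -0.91 ± 0.16, adjusted p = 0.00135 for intestine against spleen and 1.01 ± 0.16, adjusted p = 0.00393 for skin against spleen. Ccnb1, the cyclin that activates Cdk1 at the onset of mitosis, had signals of 9.95, 9.84 (spleen), 2.55, -0.699 (intestine) and 27.0, 36.2 (skin). It was detected on both spleen and both skin arrays and on neither intestine array. In skin it was higher than in spleen (0.88 ± 0.16, adjusted p = 0.00569), and in intestine it was lower (adjusted p = 0.00971), at least 1.11-fold when the lowest detected signal stands in for the intestine value. A second Ccnb1 probe gave 0.74 in skin and was likewise detected on neither intestine array.

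Cdca3, a trigger of mitotic entry that acts through destruction of the Wee1 kinase, showed the largest skin difference of the tested mitosis genes. Its signals were 99.6, 116 (spleen), 40.5, 34.0 (intestine) and 407, 382 (skin), so the skin arrays were far above the rest and the intestine arrays lowest. Cdca3 was 4.01-fold above spleen in skin (log2 difference 2.0 ± 0.14, adjusted p = 0.000106) and lower in intestine (-0.80 ± 0.14, adjusted p = 0.00129). Between skin and intestine it differed 6.99-fold (log2 difference 2.81 ± 0.14, adjusted p = 7.38e-07). Ccna2, Ccnb2, Ccnf, Cks1b and Cks2 could not be tested: Cks2 was detected on 1 spleen array and the others on no array.

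**Figure D2:**
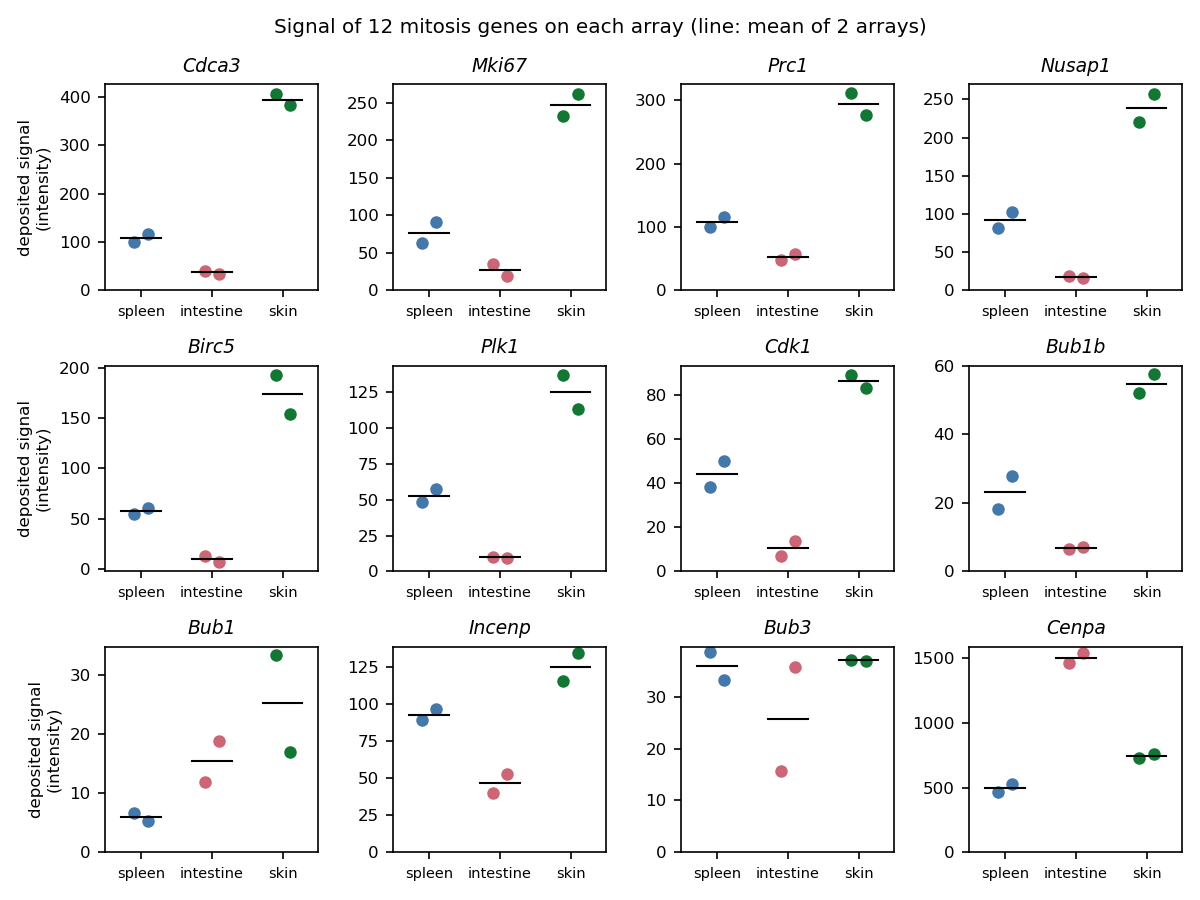
Deposited signal (vertical axis, intensity, each panel with its own range) of 12 mitosis genes in spleen, intestine and skin, with a point per array and a line at the mean of 2 arrays. In 9 of the panels the skin points lie above the spleen points and the intestine points below, Bub1 and Bub3 overlap between tissues, and Cenpa is highest in intestine.

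Among the mitotic kinases, Plk1, which acts at centrosomes, kinetochores and the midbody, had signals of 48.1, 57.7 (spleen), 10.4, 9.67 (intestine) and 137, 113 (skin). The tissues did not overlap. Plk1 was 2.17-fold lower in intestine than in spleen (log2 difference -1.12 ± 0.15, adjusted p = 0.000266) and 2.45-fold higher in skin (1.29 ± 0.15, adjusted p = 0.000940). Aurka, the Aurora kinase of the spindle poles, had signals of 19.0, 25.0 (spleen), 7.11, 1.92 (intestine) and 32.7, 35.1 (skin). Its tissues kept the same order without overlap, and 1 of the intestine arrays detected it. The differences were -0.74 ± 0.17, adjusted p = 0.00565 in intestine and 0.56 ± 0.17, adjusted p = 0.0402 in skin, both against spleen. Nek2, a centrosome kinase, was detected on no array.

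The chromosomal passenger complex corrects faulty kinetochore attachments and steers cytokinesis, and its 4 subunits were all tested. Aurkb, its kinase, had signals of 23.2, 20.1 (spleen), 4.15, -2.03 (intestine) and 67.1, 54.2 (skin), with neither intestine array detecting it. Birc5 (survivin), which docks the complex on chromatin, had signals of 54.9, 60.2 (spleen), 12.7, 6.94 (intestine) and 193, 154 (skin). Both genes had their highest values on the skin arrays and no overlap between tissues. Aurkb was at least 1.47-fold lower in intestine than in spleen (adjusted p = 0.00176) and 2.27-fold higher in skin (log2 difference 1.18 ± 0.19, adjusted p = 0.00360). Birc5 was 2.34-fold lower in intestine (-1.23 ± 0.19, adjusted p = 0.000485), where 1 array detected it, and 3.08-fold higher in skin (1.63 ± 0.19, adjusted p = 0.000804). Between skin and intestine Birc5 differed 7.23-fold. Its other 2 probes gave 1.51 and 1.61 in skin and -1.18 and -1.40 in intestine, where each was detected on 1 array, against spleen.

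The other 2 subunits had smaller differences. Incenp, the scaffold that binds and activates Aurora B, had signals of 88.8, 96.3 (spleen), 40.3, 52.4 (intestine) and 115, 134 (skin). Skin was above spleen without overlap (0.63 ± 0.15, adjusted p = 0.0167), and the intestine value (-0.38 ± 0.15, adjusted p = 0.0584) did not pass the test, though it passed with the replicate number as a block (adjusted p = 0.0352). Cdca8 (borealin), a targeting subunit, had signals of 7.92, 15.6 (spleen), 3.55, 2.30 (intestine) and 24.7, 18.6 (skin). Neither intestine array detected it, and it was at least 1.15-fold lower there (adjusted p = 0.0234). In skin its difference from spleen was 0.49 ± 0.16, adjusted p = 0.0502, just outside the threshold, and with the block the adjusted p was 0.0449. All 4 subunits were higher in skin than in intestine, with adjusted p between 2.95e-06 (Birc5) and 0.000808 (Cdca8).

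The spindle checkpoint genes differed in direction among themselves. Bub1b (BubR1), part of the complex that inhibits Cdc20, had signals of 18.3, 27.9 (spleen), 6.65, 7.23 (intestine) and 51.9, 57.5 (skin). It was lower in intestine, where 1 array detected it (-0.60 ± 0.14, adjusted p = 0.00654), and higher in skin (1.03 ± 0.14, adjusted p = 0.00198), with no overlap. Mad2l1 (Mad2), the protein that captures Cdc20, had signals of 37.6, 27.7 (spleen), 9.11, 1.08 (intestine) and 48.1, 37.3 (skin). It was lower in intestine (-0.98 ± 0.22, adjusted p = 0.00412), where 1 array detected it. Skin and spleen overlapped, with a difference of 0.50 ± 0.22, adjusted p = 0.113, and with the replicate block the adjusted p was 0.0336.

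Bub1, which recruits checkpoint proteins to kinetochores, went the other way in intestine by its brighter probe. Its signals were 6.70, 5.36 (spleen), 12.0, 18.7 (intestine) and 33.4, 17.0 (skin), so spleen was lowest and skin and intestine overlapped. Against spleen the differences were 0.60 ± 0.20, adjusted p = 0.0299 in intestine and 0.87 ± 0.20, adjusted p = 0.0149 in skin, and between skin and intestine 0.27 ± 0.20, adjusted p = 0.322. A second, dimmer Bub1 probe had signals of 5.51, 3.96 (spleen), 3.63, 7.63 (intestine) and 12.3, 3.92 (skin). It was detected on neither intestine array and was not tested, so the higher value in intestine rests on 1 probe. Bub3, the adaptor that carries Bub1 and BubR1 to kinetochores, had signals of 38.5, 33.1 (spleen), 15.7, 35.8 (intestine) and 37.1, 36.9 (skin). Intestine replicate 1 was the lowest, and the other 5 arrays lay close together. None of its 3 differences passed (0.02 ± 0.21, adjusted p = 0.940 in intestine and 0.27 ± 0.21, adjusted p = 0.356 in skin against spleen). Its other 2 probes were detected on the spleen arrays alone, so their differences are not read. Ttk (Mps1), the kinase at the top of the checkpoint, was detected on no array.

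The centromere and kinetochore genes held an exception, Cenpa. Cenpa had signals of 467, 532 (spleen), 1462, 1538 (intestine) and 730, 760 (skin). Intestine was above skin and skin above spleen, with no overlap. Against spleen, Cenpa was 3.23-fold higher in intestine (1.69 ± 0.14, adjusted p = 1.10e-05) and 1.68-fold higher in skin (0.75 ± 0.14, adjusted p = 0.00736). It was lower in skin than in intestine (-0.94 ± 0.14, adjusted p = 0.000537), and on either slide alone the intestine difference from spleen was 1.72 and 1.66. Cenpa was measured by 1 probe.

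The other kinetochore genes are given next. Cenpe, a kinesin that carries chromosomes to the spindle equator, had signals of 36.9, 51.4 (spleen), 11.9, 10.7 (intestine) and 123, 150 (skin), with no overlap between tissues. It was lower in intestine (-0.85 ± 0.17, adjusted p = 0.00216) and 3.01-fold higher in skin (1.59 ± 0.17, adjusted p = 0.000530). Spc24 and Ndc80 are subunits of the complex that grips microtubules at the kinetochore. Spc24 had signals of 49.3, 41.6 (spleen), 21.5, 13.6 (intestine) and 193, 140 (skin), lowest in intestine and highest in skin. It was 3.51-fold above spleen in skin (1.81 ± 0.20, adjusted p = 0.000605) and lower in intestine (-0.56 ± 0.20, adjusted p = 0.0366), and a second, dimmer probe gave 1.06 and -0.10, with 1 intestine array detecting it. Ndc80 had signals of 6.19, 7.66 (spleen), -2.12, -5.33 (intestine) and 14.9, 10.9 (skin), with neither intestine array detecting it. It was lower in intestine (adjusted p = 0.000556), with no fold given since its spleen level was not above the lowest level detected in intestine, and in skin its difference from spleen was 0.23 ± 0.14, adjusted p = 0.237. Cenpf, a kinetochore protein of late G2, had signals of 5.28, 5.24 (spleen), 4.98, 10.5 (intestine) and 7.51, 12.8 (skin), and none of its differences passed (adjusted p between 0.351 and 0.758).

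Cdc20, the coactivator that starts anaphase, had signals of 24.4, 31.9 (spleen), 17.1, 12.1 (intestine) and 86.6, 80.1 (skin). The intestine arrays were below the spleen arrays, but the difference was -0.28 ± 0.17, adjusted p = 0.184, and within the slides it was 0.03 and -0.59. In skin Cdc20 was 2.58-fold higher than in spleen (1.37 ± 0.17, adjusted p = 0.000969), and its other 2 probes gave 0.84 and 0.77. Ube2c, the ubiquitin-conjugating enzyme of the same complex, was detected on no array.

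Of the spindle motors and microtubule binders, 4 of 6 could be tested, and all 4 were more than 2-fold above spleen in skin. Nusap1, which bundles spindle microtubules near chromosomes, had signals of 82.0, 103 (spleen), 18.4, 16.3 (intestine) and 221, 257 (skin). The tissues did not overlap, with skin highest. It was 2.52-fold lower in intestine than in spleen (log2 difference -1.33 ± 0.15, adjusted p = 8.82e-05), and 2.83-fold higher in skin (1.5 ± 0.15, adjusted p = 0.000492). Kif22, a kinesin that pushes chromosome arms from the poles, had signals of 30.3, 32.7 (spleen), 6.16, 1.59 (intestine) and 111, 108 (skin). It was 2.07-fold lower in intestine, where 1 array detected it (-1.05 ± 0.16, adjusted p = 0.000491), and 3.08-fold higher in skin (1.62 ± 0.16, adjusted p = 0.000462).

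Kif2c (MCAK), which takes microtubules apart at centromeres, had signals of 9.13, 13.8 (spleen), -1.42, -2.35 (intestine) and 53.1, 49.8 (skin). Neither intestine array detected it, and it was at least 1.15-fold lower there than in spleen (adjusted p = 0.000373) and 2.56-fold higher in skin (1.35 ± 0.14, adjusted p = 0.000488). Tpx2, the activator of Aurora A on the spindle, had signals of 12.0, 20.3 (spleen), 3.84, 13.4 (intestine) and 49.5, 48.2 (skin). Its intestine and spleen values overlapped (-0.29 ± 0.19, adjusted p = 0.214), and 1 intestine array detected it. Skin lay above both, 2.19-fold higher than spleen (1.13 ± 0.19, adjusted p = 0.00439). Kif11, the motor that separates the poles, was detected on no array, and Hmmr, a spindle protein, on 1 intestine array.

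Among the central spindle and cytokinesis genes, Prc1, which bundles the antiparallel microtubules of the midzone, had signals of 99.6, 116 (spleen), 47.9, 57.0 (intestine) and 312, 277 (skin). Its tissues did not overlap. It was 3.02-fold above spleen in skin (1.59 ± 0.15, adjusted p = 0.000402), and in intestine it was lower by a small margin (-0.43 ± 0.15, adjusted p = 0.0369). Kif23, the kinesin of centralspindlin, had signals of 106, 132 (spleen), 82.0, 46.4 (intestine) and 234, 271 (skin), and skin was again above spleen (1.26 ± 0.21, adjusted p = 0.00416). Its intestine difference did not pass (-0.36 ± 0.21, adjusted p = 0.174) and had opposite signs within the slides, at 0.11 and -0.82. A probe under its older symbol Knsl5, detected on 4 of the 6 arrays, gave 0.24 in skin and 0.02 in intestine.

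Racgap1, the partner of Kif23 in centralspindlin, was the only tested mitosis gene with a skin value below spleen. Its signals were 6.68, 6.01 (spleen), 0.799, -0.916 (intestine) and 1.61, 1.89 (skin), and it was detected on the spleen arrays alone. It entered the test through spleen, where it is highest, and so had to be lower in the other tissues. Its intestine difference from spleen passed (adjusted p = 0.00911) and its skin difference did not (adjusted p = 0.0510, and 0.0466 with the replicate block), and neither is given a fold. Anln (anillin), a scaffold of the contractile ring, had signals of 17.3, 26.3 (spleen), -0.0420, 0.326 (intestine) and 55.4, 72.3 (skin). It was at least 1.46-fold lower in intestine, where neither array detected it (adjusted p = 0.000284), and 2.36-fold higher in skin (1.24 ± 0.15, adjusted p = 0.00107). Kif20a and Ect2, which also act in cytokinesis, were detected on no array.

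Mki67 (Ki-67), which coats mitotic chromosomes and is the usual marker of dividing cells, had signals of 63.8, 90.5 (spleen), 34.6, 19.4 (intestine) and 232, 262 (skin). Skin was highest and intestine lowest, with no overlap. It was 3.44-fold above spleen in skin (log2 difference 1.78 ± 0.21, adjusted p = 0.000877) and 1.66-fold lower in intestine (-0.73 ± 0.21, adjusted p = 0.0166), with -0.22 and -1.24 within the slides. A second, dimmer Mki67 probe was detected on 3 arrays and not tested. Its signals were -0.481, 4.54 (spleen), 3.50, 9.14 (intestine) and 14.9, 6.24 (skin), so its tissues overlapped. Top2a, the topoisomerase that untangles sister chromatids, had signals of 68.1, 80.4 (spleen), 30.5, 17.7 (intestine) and 148, 143 (skin), in the same order. Its differences from spleen were 1.12 ± 0.18, adjusted p = 0.00417 in skin and -0.80 ± 0.18, adjusted p = 0.00521 in intestine. A second, dimmer Top2a probe, detected on all 6 arrays, gave 0.22 in skin and 0.09 in intestine. The probes of this gene therefore disagree in intestine, and in skin they differ in size. By the second probe skin (16.8, 25.1) and spleen (17.1, 16.4) overlapped.

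**Figure D3:**
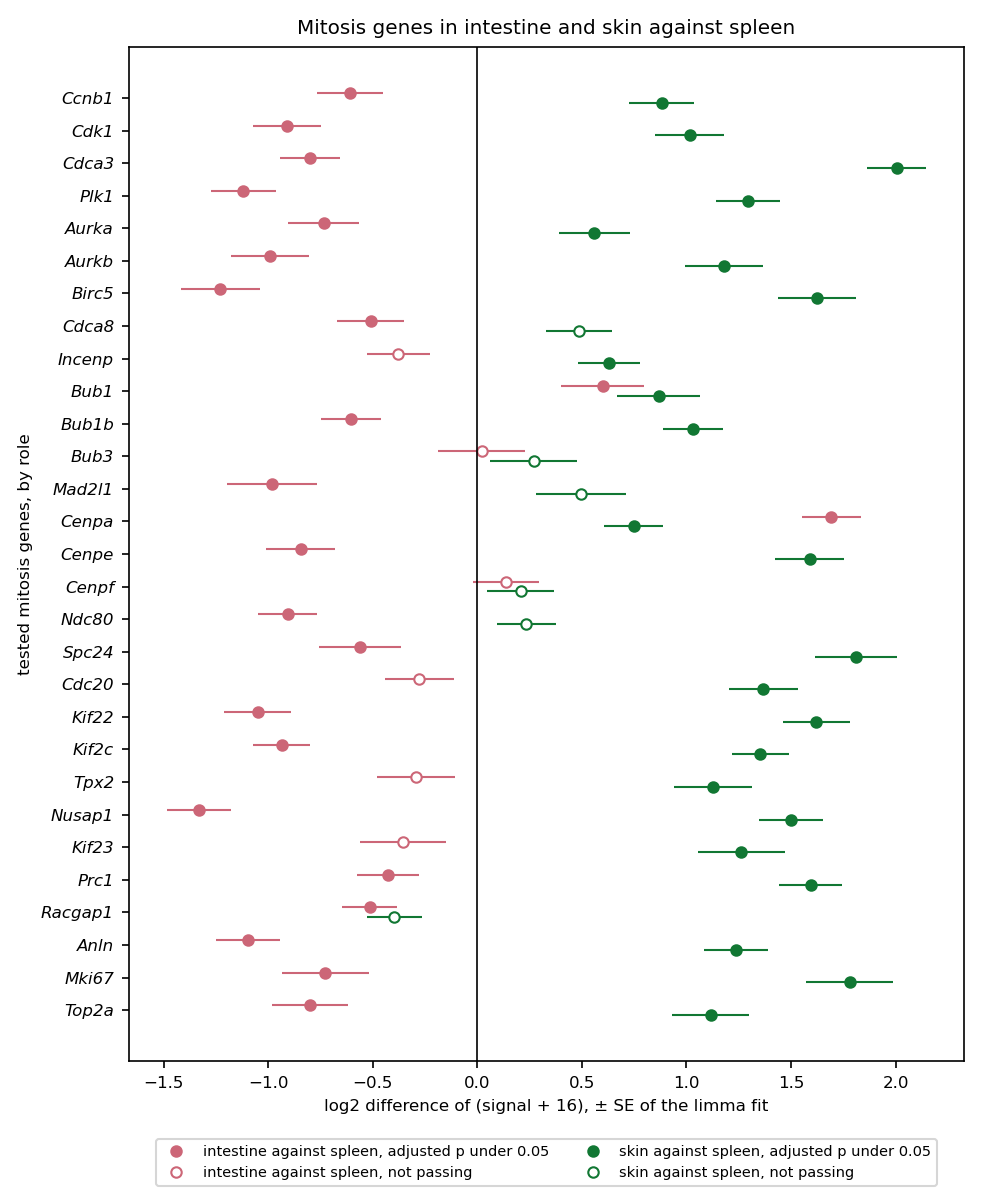
Log2 difference (horizontal axis, log2 of signal + 16) of each tested mitosis gene in intestine and in skin against spleen, with bars of ± 1 SE from the limma fit; filled points passed an adjusted p under 0.05. Skin points lie to the right of 0 for 28 of the 29 genes and intestine points to the left for 25 of 29.

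Some calls were lost when a single sample was left out. In the fits without a spleen array fewer of all genes passed as well. A fit without an array leaves a lone sample in that tissue, which is assumed to vary like the other tissues. Without spleen replicate 2 the median log2 difference for intestine against spleen was -0.61. In that fit Ccnb1, Aurka, Cdca8, Bub1b, Spc24, Prc1, Racgap1, Mki67 and Top2a no longer passed as lower, nor did Bub1 as higher. Without spleen replicate 1 this median was -0.79, with Ccnb1, Spc24, Prc1, Racgap1 and Bub1 not passing. Without intestine replicate 2, Cdca8, Spc24, Mki67 and Bub1 did not pass (0.0868 to 0.194), while Incenp and Tpx2 did (0.0213 and 0.0214). Without intestine replicate 1, Prc1 did not pass (0.126), and Cdc20 and Kif23 passed as lower (0.0335 and 0.0119) and Bub3 as higher (0.0472).

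For skin against spleen the median was 1.01 without spleen replicate 1, where Ccnb1, Cdk1, Aurka, Incenp, Bub1, Cenpa and Tpx2 did not pass. Without spleen replicate 2, Ccnb1, Aurka, Incenp and Bub1 did not pass (0.064 to 0.142). Without skin replicate 1, Aurka, Incenp and Bub1 did not pass (0.0542 to 0.119), and without skin replicate 2, Aurka and Incenp (0.0741 to 0.124). Without either intestine array, Cdca8 and Mad2l1 passed as higher and Racgap1 as lower (0.0255 to 0.0351). In these fits, every skin call of Cdca3, Plk1, Aurkb, Birc5, Bub1b, Cenpe, Spc24, Cdc20, Kif22, Kif2c, Nusap1, Kif23, Prc1, Anln, Mki67 and Top2a remained past the threshold.

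Skin against intestine had the largest median difference of the 3 comparisons. All 25 calls remained under each of the alternatives that could be computed for them. Examples detected on 1 or both intestine arrays were Birc5 (2.85 ± 0.19), Nusap1 (2.83 ± 0.15), Cdca3 (2.81 ± 0.14), Kif22 (2.67 ± 0.16) and Mki67 (2.51 ± 0.21). For genes not detected in intestine the folds are bounds: Anln was at least 3.45-fold higher in skin, Aurkb 3.32-fold, Kif2c 2.95-fold, Ccnb1 2.04-fold, Cdca8 1.62-fold and Ndc80 1.18-fold. With such genes at their bound the median of skin against intestine was 1.64 again, and for intestine against spleen it was -0.55.

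**Figure D4:**
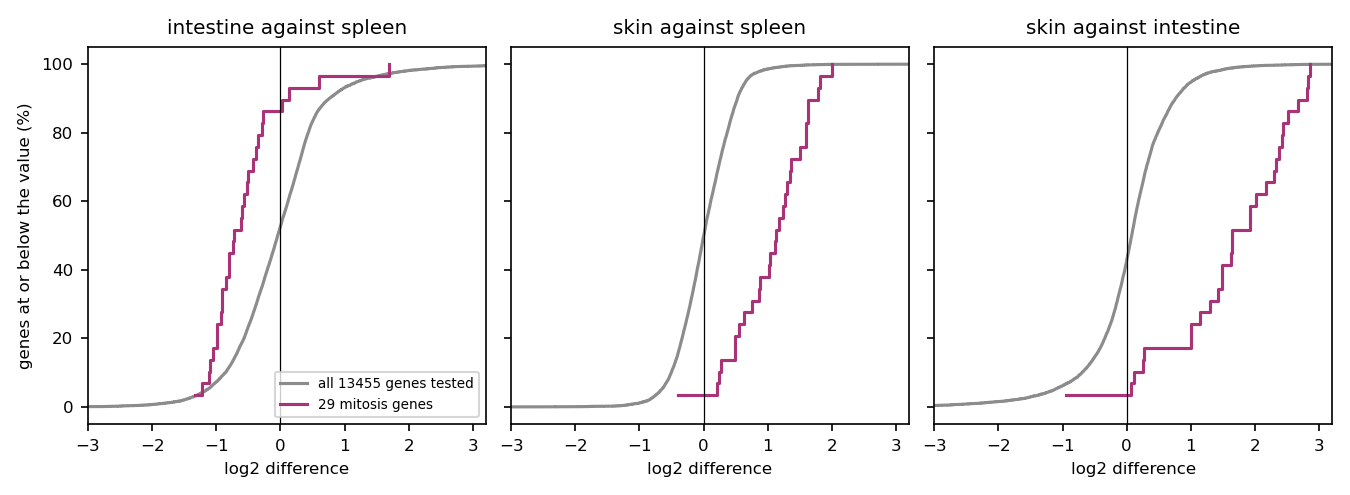
Share of genes (vertical axis, %) at or below each log2 difference (horizontal axis, shown from -3 to 3.2) in the 3 comparisons, for the 29 tested mitosis genes and for all 13455 genes tested. The mitosis curve lies left of the curve of all genes for intestine against spleen (median -0.73 against -0.04) and right of it in both skin comparisons.

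Genes of division outside this set were counted in the same way. Of all genes tested, 28.4% were lower and 21.0% higher in intestine than in spleen. For skin against spleen 13.1% were higher and 11.5% lower, and for skin against intestine 22.9% were higher and 16.4% lower. Of 76 other mitosis genes, 56 were tested: 22 were lower and 1 higher in intestine than in spleen (median log2 difference -0.32, or -0.22 with undetected genes at their bound), and 24 were higher and 1 lower in skin than in spleen (0.42). Between skin and intestine 41 were higher and 1 lower (0.78, or 0.57 at the bounds). Cdca5 (sororin), which protects sister chromatid cohesion (1.66 ± 0.16, adjusted p = 0.000414), the kinesin Kif18b (1.57 ± 0.13, adjusted p = 0.000283) and Cdca2, which brings a phosphatase to anaphase chromatin (1.33 ± 0.15, adjusted p = 0.000643), were among those higher in skin than in spleen. Haspin, a histone H3 kinase of mitotic centromeres, was lower than in spleen in both skin (-0.84 ± 0.13, adjusted p = 0.00347) and intestine (-2.26 ± 0.13, adjusted p = 1.26e-06). In intestine the centromere protein Cenpo (-1.39 ± 0.16, adjusted p = 7.34e-05) and the condensin subunit Smc2 (-1.28 ± 0.16, adjusted p = 0.000125) were also lower. Cenpl, which sits with Cenpa nucleosomes in the constitutive centromere network, was higher in intestine than in spleen (2.03 ± 0.14, adjusted p = 2.53e-06) and lower in skin than in intestine (-1.53 ± 0.14, adjusted p = 1.99e-05). Ckap2l, a spindle protein, was at least 4.50-fold and Kif18b at least 3.82-fold higher in skin than in intestine, and Cdca5 differed by 1.98 ± 0.16, adjusted p = 1.05e-05.

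DNA replication genes, which act in S phase before mitosis, gave 16 lower and 2 higher of 44 tested (of 50) in intestine, with a median of -0.18, and 22 higher and 0 lower in skin, with a median of 0.41, both against spleen. The 16 lower in intestine were 36.4% of those tested, against 28.4% of all genes. The 22 higher in skin were 50%, against 13.1% of all genes. Between skin and intestine 31 were higher and 1, Rpa2, a subunit of the single-strand DNA binding protein, was lower (-0.46 ± 0.13, adjusted p = 0.0167), with a median of 0.81. Genes higher in skin than in spleen included Uhrf1, which reads hemimethylated DNA (1.60 ± 0.15, adjusted p = 0.000402), Tk1, the thymidine kinase of S phase (1.48 ± 0.14, adjusted p = 0.000429), and Gins2, a subunit of the replicative helicase (1.21 ± 0.13, adjusted p = 0.000549). In intestine the maintenance DNA methyltransferase Dnmt1 (-1.79 ± 0.14, adjusted p = 7.73e-06), the helicase subunit Gins3 (-1.17 ± 0.19, adjusted p = 0.000803) and the ribonucleotide reductase subunit Rrm2 (-0.93 ± 0.25, adjusted p = 0.0131) were lower than in spleen. Cdt1, a licensing factor (0.64 ± 0.18, adjusted p = 0.0166), and Lig1, a DNA ligase (0.46 ± 0.13, adjusted p = 0.0143), were higher there. Tk1 (2.01 ± 0.14, adjusted p = 5.29e-06), Rrm2 (1.89 ± 0.25, adjusted p = 0.000284) and Uhrf1 (1.78 ± 0.15, adjusted p = 1.48e-05) were higher in skin than in intestine.

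Transcription factors that turn these genes on or hold them off were the last list. Of 23 listed, 15 were tested: 8 were lower and 3 higher in intestine than in spleen, 6 were higher and 1 lower in skin than in spleen, and 8 were higher and 3 lower in skin than in intestine. The 3 higher in intestine were 20% of those tested, near the 21.0% of all genes. The 3 lower in skin than in intestine were also 20%, near the 16.4% of all genes. The 8 lower in intestine were 53.3%, against 28.4% of all genes, and the 6 higher in skin than in spleen 40%, against 13.1%. E2f1, an activator of S phase genes, was higher in skin than in spleen (1.54 ± 0.14, adjusted p = 0.000307) and than in intestine (1.26 ± 0.14, adjusted p = 7.25e-05). E2f2 was at least 5.38-fold lower in intestine than in spleen, higher in skin than in spleen (0.82 ± 0.17, adjusted p = 0.00927) and at least 9.53-fold higher in skin than in intestine. Foxm1, an activator of G2 and M phase genes, was at least 1.61-fold higher in skin than in intestine. Lin54, the subunit of the MuvB core that contacts the cell cycle homology region, was higher in intestine than in spleen (2.23 ± 0.17, adjusted p = 5.21e-06) and lower in skin than in intestine (-2.41 ± 0.17, adjusted p = 3.82e-06). Rb1, the retinoblastoma protein that restrains E2F factors, was higher than in spleen in both intestine (1.3 ± 0.14, adjusted p = 6.11e-05) and skin (0.86 ± 0.14, adjusted p = 0.00431), and lower in skin than in intestine (-0.44 ± 0.14, adjusted p = 0.0315). E2f3 was higher in intestine than in spleen (1.14 ± 0.16, adjusted p = 0.000300) and lower in skin than in intestine (-0.49 ± 0.16, adjusted p = 0.0341). The NF-Y subunit Nfyb (-0.87 ± 0.13, adjusted p = 0.000392) and the E2F partner Tfdp2 (-0.58 ± 0.14, adjusted p = 0.00651) were lower in intestine, and the NF-Y subunit Nfya was lower in skin (-0.53 ± 0.14, adjusted p = 0.0229), all against spleen.

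**Figure D5:**
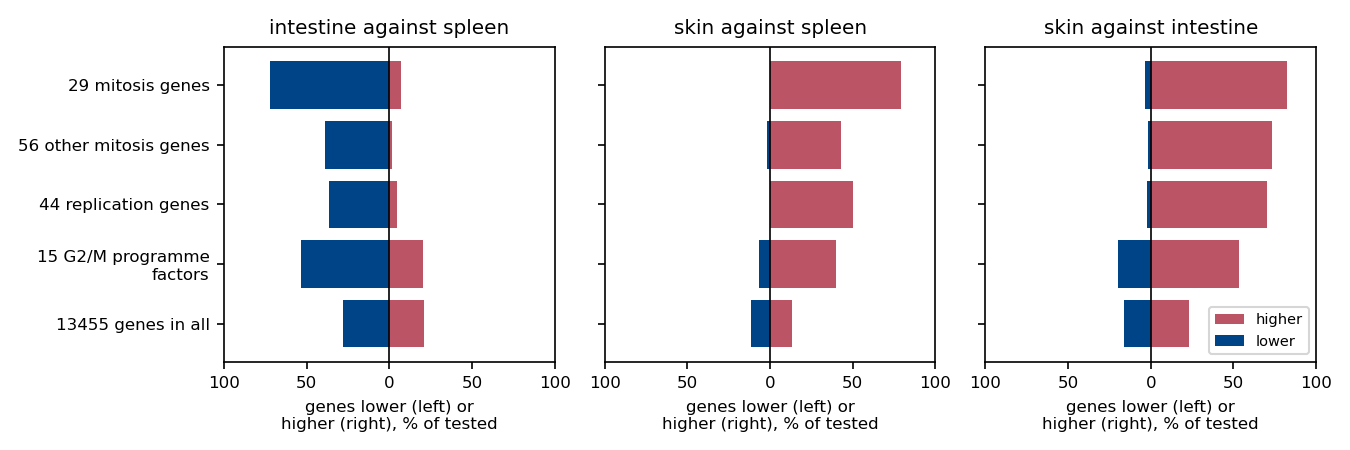
Share of tested genes (horizontal axis, %) that were called lower (left) or higher (right) in each comparison, for the mitosis genes, 3 related lists and all genes tested. In skin against spleen 79.3% of the 29 mitosis genes were higher, against 42.9% of the 56 other mitosis genes, 22 of the 44 replication genes and 13.1% of all genes. The mitosis genes and the lists were chosen with earlier results of these data known, so their shares are not an independent test.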

How the data were processed

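Gene expression of sorted NKp46+ cells was measured on 6 Illumina mouse arrays, 2 per tissue. Scanner software was BeadStudio 1.5.1.3, per the submitters' processing notes. The deposited values are a background-subtracted intensity for each probe, per the file headers an average signal, and its detection p-value. A second deposited table holds the intensities before scaling to a common mean. An offset of 16 was added, log2 taken and the arrays quantile normalized. Probes entered if 1 or more tissues had a detection p under 0.01 on both arrays, and the probe with the highest mean signal stood for a gene (13455 genes). Older symbols were read through the gene table of GRCm38.p6, used for names only. The 3 tissue contrasts were fitted with limma 3.58.1 in R 4.3.3 (lmFit and eBayes, 3 residual degrees of freedom) and adjusted by Benjamini-Hochberg at 0.05. A gene not detected in the lower tissue was given as a lower bound against that tissue's lowest detected signal.

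Replicate numbers coincide with the slide. Deviations of same-numbered samples correlated weakly across genes (r = 0.156 for spleen and intestine, 0.211 for spleen and skin, 0.113 for intestine and skin), so the numbers may pair the samples. The fit reported did not use this pairing, and a fit with the replicate number as a block was an alternative. Other alternatives were the scaling, the offset, the filter, the probe rule, the variance model and leaving out each array. Every tested mitosis gene was named with its values, and of each related list up to 3 called genes in each direction. The mitosis genes and the lists were chosen with earlier results of these data known. The fit was tested on simulated data. The number of arrays limits the precision.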

Additional observations from a re-analysis of the deposited data

How the results depend on the processing

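Each result was recomputed under up to 18 alternatives. Of the calls, 13 of 23 remained in all of them for intestine against spleen, 15 of 23 for skin against spleen and 25 of 25 for skin against intestine, and 0 changed sign. With the fit limited to genes detected on all 6 arrays, 15 mitosis genes could be called: 10 lower in intestine than in spleen, 14 higher in skin than in spleen and 12 higher in skin than in intestine. The 10 include Incenp, which passed in that fit and not in the one reported (limma, adjusted p = 0.0449). The number higher in intestine than in spleen was 1 with an offset of 64 and with no filter (17.7% and 7.15% of all genes). Leaving out 1 array at a time gave a median log2 difference of the mitosis genes of -0.80 to -0.53 for intestine against spleen. It was 1.01 to 1.22 for skin against spleen and 1.63 to 1.86 for skin against intestine. With the replicate block 2 were higher and 22 lower in intestine than in spleen (22.9% and 30.1% of all genes). In skin against spleen 25 were higher and 1 lower (15.9% and 13.9%), and in skin against intestine 24 were higher and 1 lower (24.7% and 17.8%). The 1 lower gene in skin against spleen was Racgap1, which was detected in spleen alone, also with median scaling, an offset of 4, the mean of probes and a fit of only the 4 arrays compared.

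Signs changed only for differences that passed no test in the fit reported. Bub3 in intestine against spleen was -0.38 with median scaling, -0.35 with the deposited scaling and -0.17 with the mean of probes, and from -0.35 (without intestine replicate 2) to 0.39 (without intestine replicate 1) when 1 array was left out. Bub3 in skin against spleen was -0.035 with median scaling and -0.22 with the mean of probes. In skin against intestine Bub3 was -0.055 with the mean of probes, and leaving out 1 array gave -0.12 to 0.63 for Bub3, -0.041 to 0.57 for Bub1 and -0.10 to 0.24 for Cenpf. The cause was not tested. With the deposited scaling the median of all genes was -0.25, -0.12 and 0.18 in the 3 comparisons, and that of the mitosis genes -0.90, 1.0 and 1.78. Dim genes are limited by the lower signal over background of the intestine and skin arrays.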
